A study of Mus musculus with 44 samples.

Results

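In livers of mice given Aroclor1260 together with PCB126, 783 of the 2284 m6A peaks called against input overlapped no peak of the vehicle, Aroclor1260 or PCB126 livers. These combination-only peaks were chosen by a single rule. A peak of the combination list was kept when its span shared not 1 base, on the same chromosome and strand, with any peak that the authors called against input in the other 3 treatments. They made up 34.3% of the combination list (95% interval 32.4 to 36.3%), and the 8 deposited lists together held 17573 peaks. The values that chose them are the authors' own calls against input, so their number and their fold against input are descriptions without a test.

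Every group consisted of male C57Bl/6J mice on a high-fat diet with 42% of its calories from fat, so the controls carried the diet too. Vehicle, Aroclor1260, PCB126 or Aroclor1260 with PCB126 was given orally on a single occasion at week 2, and the study ran for 12 weeks. No dose and no age is given in the sources used here. Of the 44 libraries, each of the 4 treatments had 5 of input RNA, 5 of RNA bound by the m6A antibody and 1 pulled down with IgG, and each deposited list pools the replicates of a treatment. No list therefore carries a value for a single replicate, and no spread between replicates, standard deviation or p-value across animals could be given.

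N6-methyladenosine (m6A) is a methyl mark that the METTL3 and METTL14 writer complex places on adenosines of messenger RNA, mostly within a short motif around the letters GGAC and often near the stop codon. Reader proteins of the YTH family bind the mark and alter the decay, translation or splicing of the transcript. In the liver, marked transcripts include many that encode enzymes of lipid and drug metabolism. MeRIP enriches RNA fragments with an antibody against m6A, and a peak is a stretch where the antibody fraction exceeds a reference, here either the input RNA or RNA pulled down with IgG. Aroclor1260 is a commercial mixture of polychlorinated biphenyls, and PCB126 is a dioxin-like congener that binds the aryl hydrocarbon receptor.

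Sequence was in hand only for the combination-only peaks that reach a RefSeq promoter window (GRCm38.p6, 250 bases before to 50 after a gene's start). For each gene identifier 1 stretch is printed. Of the 783 members, 5 (0.639%) had exonic blocks that entered such a window by at least 20 bases, as did 15 of the 1501 other combination peaks (0.999%). The stretches of 30 bases run 5′ to 3′ on the transcript's strand, with GGAC in capitals. GGAC was searched on that strand only, with no other motif.
Sord, chr2:122234855-122234884, plus strand: cgccgggtccagcGGACacctcgaagcaag
Dnajb1, chr8:83608417-83608446, plus strand: tgcgctaccacccGGACaagaacaaggagc
Cd164, chr10:41519517-41519546, plus strand: gcctgggctgaagacacaatgtcgggctcc
ENSMUSG00000097675, chr6:129533262-129533291, minus strand: aacgtccagagaaGGACctggagatctcgc
Sord encodes sorbitol dehydrogenase and its peak had a fold enrichment of 1.83. Dnajb1, a co-chaperone of heat shock proteins, had 1.47. Its peak lies wholly before the gene start that defines the window, so the window does not place the peak within the transcript. Cd164, a sialomucin, had 1.67 and no GGAC in its stretch, which says only that these letters are not in this window. The identifier ENSMUSG00000097675, which the naming by position left without a RefSeq name, had 2 such peaks, with folds of 1.93 and 1.35, and both enter the window of the RefSeq gene 1700101I11Rik. The printed stretch is from the first of them. The second also held GGAC within the window and lies wholly before that gene's start. Among all 32851 promoter windows, GGAC lay in the same part of the window as the peak in 16.2% for Sord, 40.9% for Dnajb1, 13.9% for Cd164 and 29.99% for the first peak of ENSMUSG00000097675. All 5 of these peaks were also called in the combination and in another treatment when IgG was the reference.

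The 4 lists called against input differed in length, with 620 peaks in vehicle controls, 506 with Aroclor1260, 2178 with PCB126 and 2284 with both. The lists called against IgG held 2091, 2082, 4129 and 3683 peaks in the same order. Sequencing depth is unknown for all of them, and its part in these lengths was not tested. The same rule gave 28 of 620 peaks (4.52%) found in controls alone, 22 of 506 (4.35%) after Aroclor1260 alone and 759 of 2178 (34.8%) after PCB126 alone. A share near 34% therefore also held for PCB126, the other long list. With every list cut to its 506 peaks of lowest false discovery rate, the shares were 44.9% for the combination, 39.9% for PCB126, 26.1% for Aroclor1260 and 28.5% for controls. Of the liver cell markers, 5 of 10 hepatocyte genes had a peak in the combination list. Endothelial, stellate and macrophage markers each had 1 gene there, and lymphocyte and cholangiocyte markers had none. The libraries are of bulk liver, in which fewer cells of a type and less RNA per cell cannot be told apart.

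The combination-only peaks had lower fold enrichments than the rest of their list. The fold is the authors' linear ratio of m6A over input for a peak. Its median was 1.86 in members (95% interval 1.81 to 1.96, quartiles 1.5 and 2.5, range 1.03 to 13.8), against 2.79 in the other combination peaks (quartiles 2 and 4.33) and 2.4 in the whole list. A fold of at least 2 was reached by 360 members (46.0%) and a fold of at least 4 by 55 (7.02%), against 76.4% and 28.6% of the other peaks. Members were also short, with a median exonic width of 150 bp against 251 bp, and 345 of them (44.1%) were at most 101 bp wide, against 19.1% of the others. This width is the lower quartile of the whole combination list. A short peak has fewer bases that could meet a peak of another list, so width and the rule are not independent. Neither trait was particular to the combination. Median folds were 1.54 in control-only, 1.575 in Aroclor1260-only and 2.03 in PCB126-only peaks, against 2.32, 2.135 and 2.45 in their whole lists. Median widths were 101, 149 and 150 bp in the same order, against 201, 200 and 201 bp.

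**Figure D1:**
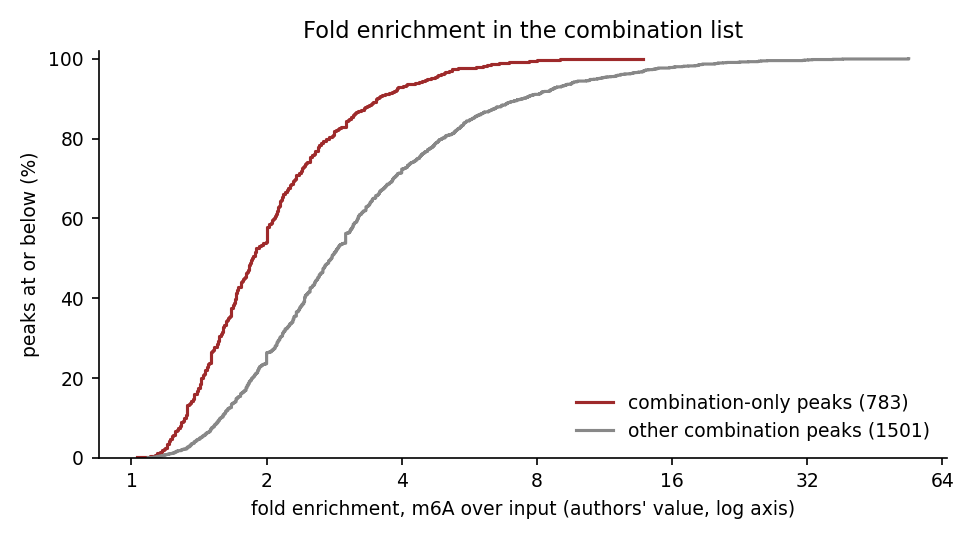
Share of peaks (percent, vertical axis) at or below each fold enrichment of m6A over input (horizontal log axis) for the 783 combination-only peaks and the 1501 other combination peaks. The curve of the combination-only peaks lies to the left, with a median of 1.86 against 2.79.

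Position in the gene was not used by the rule. It could be placed for the 575 members whose gene has a known strand, as a fraction of the RefSeq gene span from start to end, introns included. The median was 0.830 (95% interval 0.792 to 0.864) in members and 0.790 in 1082 other combination peaks. The last 20% of the span held 53.4% of members against 48.6% of the others, a difference of 4.78 percentage points whose 95% interval of -0.279 to 9.79 includes 0. The middle of the span held 34.1% of members against 41.6%, a difference of -7.50 points (-12.3 to -2.59). More than 1 exonic block, a peak that spans a splice junction, was seen in 241 members (30.8%) against 25.8% of the others, a difference of 5.00 points (1.13 to 8.95). Of the members, 95.7% lay on the plus strand, as did 94.5% of the others, and in the 8 lists this share ran from 90.9% to 96.3%, for which the labels give no reason. These intervals cover counting error only, since peaks of 1 gene are not independent and share false discovery rates.

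With IgG as the reference, 534 of the 783 members (68.2%, 64.9 to 71.4%) overlapped a peak of the combination, against 89.0% of the other combination peaks and a background of 81.9% over the whole list. When the other treatments were read with IgG, 497 members (63.5%, 60.04 to 66.8%) overlapped an IgG-called peak of at least 1 other treatment, against 96.5% of the other peaks and a background of 85.2%. PCB126 livers held 385 of the members with IgG (49.2%), Aroclor1260 livers 234 (29.9%) and vehicle controls 215 (27.5%). The other combination peaks overlap an input-called peak of another treatment by definition. The own IgG lists held 85% of the input-called peaks in controls, 88.3% with Aroclor1260 and 87.9% with PCB126. The gap in the shares held by other treatments therefore follows largely from the rule. The IgG lists use the same m6A libraries as the input lists, so they are a second reference and not a replicate. A peak absent from a list is one that was not called, which is not the same as RNA without the mark.

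Splitting the members by both references gave 4 classes. In the combination alone with IgG as well as with input were 166 peaks (21.2%, 18.5 to 24.2%) at 99 loci, with a median fold of 2.11, against a background of 8.58% of all combination peaks. In the combination and also in another treatment with IgG were 368 peaks (47.0%), with a median fold of 2. In another treatment's IgG list but not in that of the combination were 129 peaks (16.5%), with a median fold of 1.57. In no IgG list were 120 peaks (15.3%), with a median fold of 1.71. Among the 1501 other combination peaks the same classes held 2.00%, 87.0%, 9.46% and 1.53%. Those peaks overlap another treatment's input-called peak by definition, so their low share in the first class follows largely from the rule. The background of 8.58% includes the 166 members themselves. The rule applied within the IgG lists alone gave 972 of 3683 combination peaks (26.4%).

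**Figure D2:**
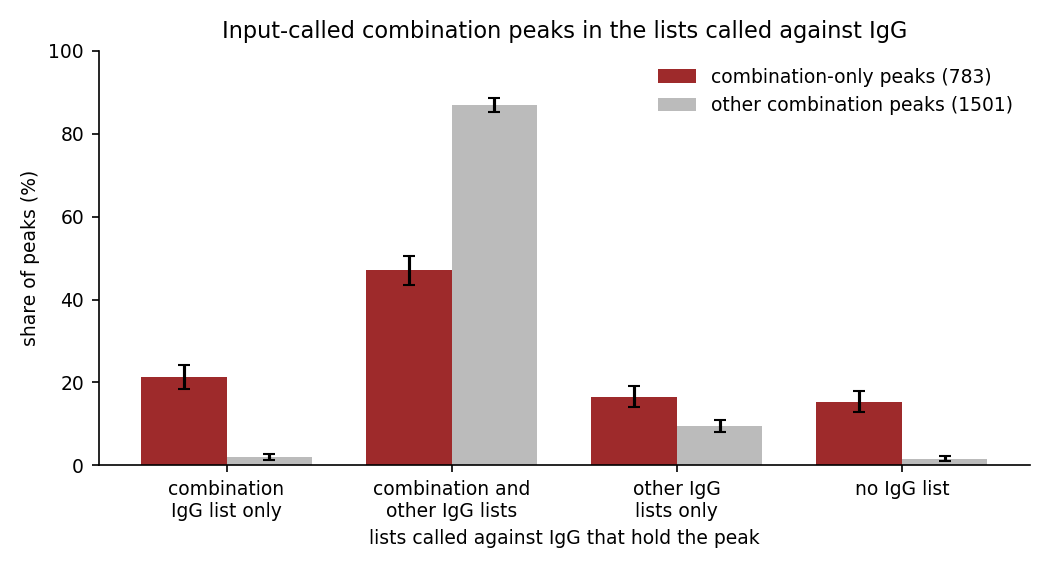
Share of peaks (percent) by the IgG-called lists that hold them, for 783 combination-only peaks and 1501 other combination peaks, with Wilson 95% intervals that cover counting error only. The class held by the combination IgG list alone has 21.2% of the combination-only peaks and 2.00% of the others. The others overlap an input-called peak of another treatment by definition, so this contrast follows largely from the rule.

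The members lay at 374 of the 741 loci with a combination peak (50.5%), of which 346 have a RefSeq name. A single member was found at 193 loci, 2 members at 83, and 3 or more at 98 loci, which together held 424 members. At 186 loci every combination peak was a member. At the other 188 loci, 300 members stood beside combination peaks that overlap another list. The gene of a member had a peak elsewhere in another input list for 293 members (37.4%), against 78.2% of all combination peaks, and in PCB126 livers for 277 of them. The other combination peaks overlap such a list by definition, so the lower share in members follows largely from the rule. With the IgG lists added this came to 659 members (84.2%). Loci without a peak in any other treatment, whichever reference was used, numbered 54 and held 124 members, and 41 of those loci also had a peak in the combination IgG list.

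Igf1, the liver-made growth factor that carries growth hormone signals to other tissues, had called peaks in the combination only, with both references. It had 11 peaks against input, at chr10:87859165-87936495 on the plus strand, and 11 against IgG, and no peak in any of the 6 lists of the other treatments. Along the gene, the folds against input were 2.50, 1.68, 1.67, 2.53, 3.90, 2.06, 3.62, 1.52, 2.17, 2.2 and 2.93. The highest, 3.90, belonged to chr10:87931369-87931867, and 10 of the 11 overlapped an IgG-called peak of the combination, with folds up to 5.80. The caller gave 8 of the 11 the same false discovery rate of 2.45e-06, so they are not independent calls.

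The 7 peaks of the identifier ENSMUSG00000005677 (chr1:171214020-171220403, plus strand) had the same pattern, with no peak of the other treatments against either reference. Their folds ran from 1.20 to 2.10, and 6 of them overlapped an IgG-called combination peak, with folds up to 2.49. The identifier has no RefSeq name here because its peaks fall within the spans of neighbouring genes, neither of which holds enough of them. The first 4 lie within the RefSeq span of Nr1i3, the constitutive androstane receptor that switches on drug-metabolising genes of the liver. The last 3 lie within that of Tomm40l, a gene related to the mitochondrial import pore. The authors' list gives all 7 the same identifier, so lying within that span does not assign the last 3 to Tomm40l.

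F9, coagulation factor IX, which the liver secretes for clotting, had 5 peaks against input (chrX:59999514-60030709, plus strand), with folds of 3.96, 3.8, 2.22, 4.04 and 2.61. All 5 overlapped IgG-called peaks of the combination, with folds of 5.05, 4.40, 2.15, 3.20 and 2.52. No other treatment had a peak there with either reference.

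Scd1, the desaturase that makes monounsaturated fatty acids for triglyceride synthesis, had 9 combination-only peaks (chr19:44395298-44407559, minus strand), with folds from 1.41 to 4.12, and no input-called peak elsewhere. With IgG, the Aroclor1260 livers had 7 peaks of up to 8.70 fold, the PCB126 livers 9 of up to 6.60, the combination livers 7 of up to 5.20, and vehicle controls none. Against IgG, Scd1 thus had called peaks in all 3 exposed groups, and 8 of its 9 members overlapped a peak of Aroclor1260 or PCB126.

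Srcap, a chromatin-remodelling ATPase, had the most members of any locus, 13 peaks (chr7:127525366-127560869, plus strand), with folds from 1.21 to 3.32. None of these was combination-only with IgG. The gene identifier of these members had 10 IgG-called peaks in controls, 13 with Aroclor1260, 16 with PCB126 and 11 with both. The map also draws further IgG-called peaks named Srcap, outside these counts and largely at the same positions. The maps of these genes show the contrast, in which Igf1 and F9 keep empty rows in the other treatments with both references and Scd1 and Srcap do not.

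**Figure D3:**
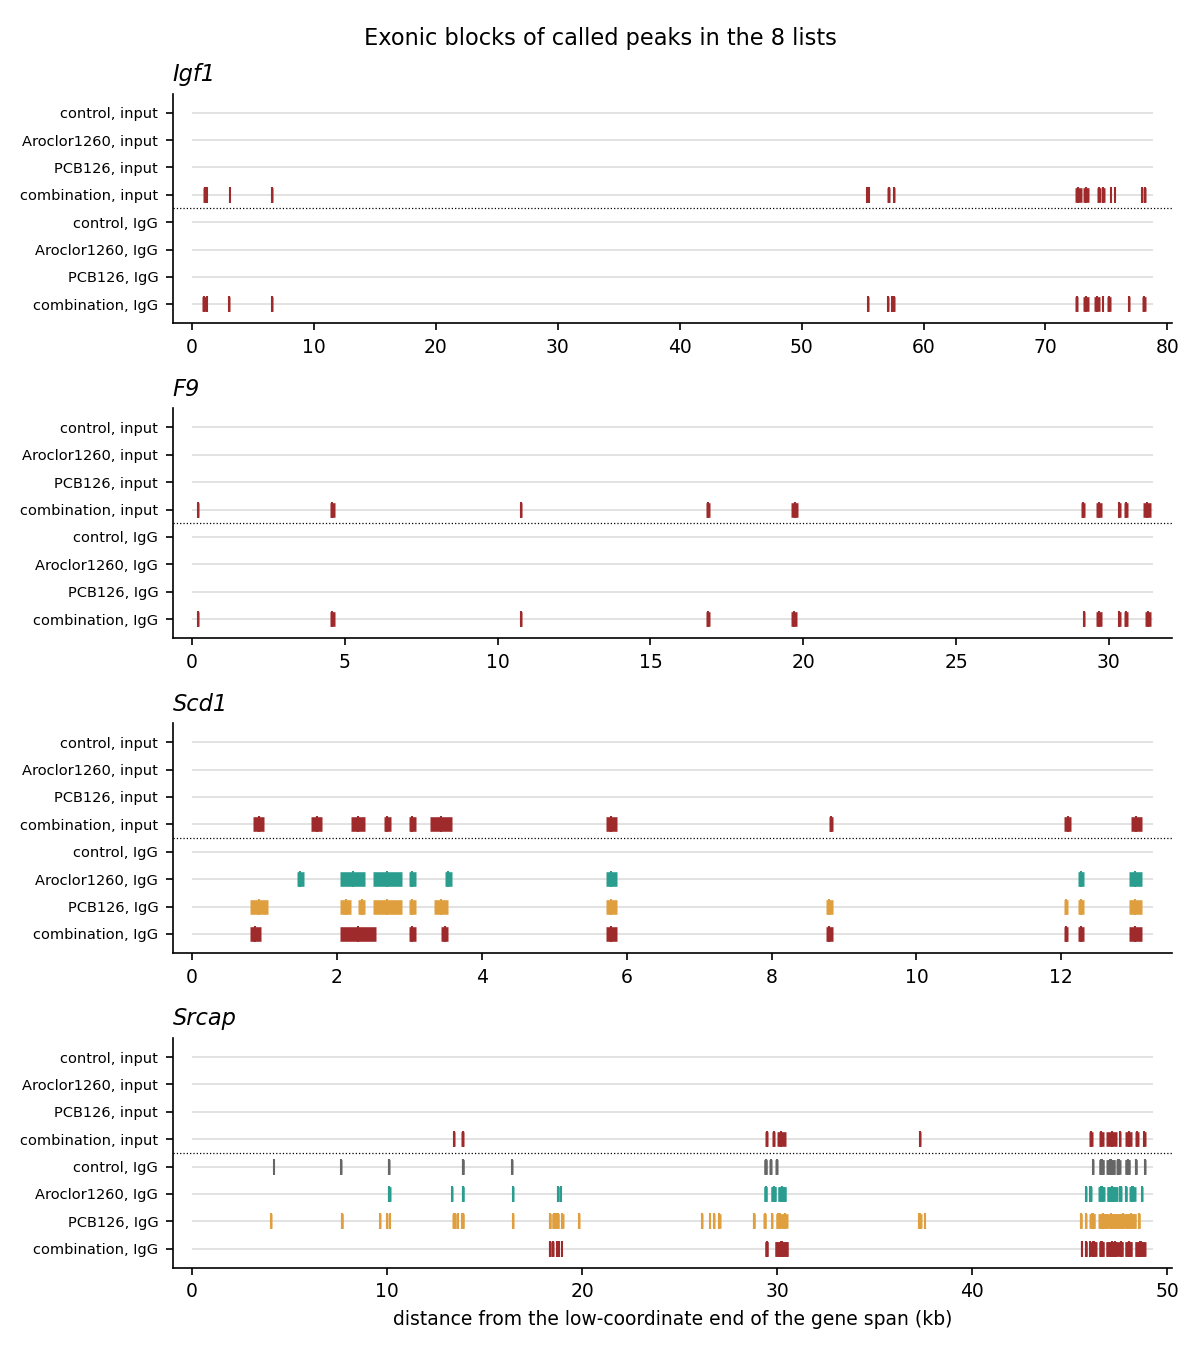
Exonic blocks of every called peak at Igf1, F9, Scd1 and Srcap in the 8 lists (rows, treatment and reference), against distance in kb from the low-coordinate end of the RefSeq gene span. Igf1 and F9 have blocks in the combination rows alone, Scd1 also in the IgG rows of Aroclor1260 and PCB126, and Srcap in all IgG rows.

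The other loci rich in members all had IgG-called peaks in at least 1 other treatment. Zfhx4, a zinc finger homeobox factor, had 11 members with folds from 1.25 to 3.00, and PCB126 livers had 15 IgG-called peaks there. Myo10, a motor of cell protrusions, had 7 members up to 3.45, with 12 PCB126 peaks against IgG, and Pkp4, a plakophilin of cell junctions, had 7 up to 4.29, with 6. At these 3 genes neither controls nor Aroclor1260 livers had a peak with either reference.

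R3hdm2 had 9 members with folds from 1.33 to 3.62, and 7 IgG-called peaks in each of the Aroclor1260 and PCB126 groups. Dpyd, which starts the breakdown of uracil and thymine, had 8 from 1.03 to 3.20, and Nbr1, an autophagy receptor, had 6 from 1.30 to 4.76. Mpeg1, a pore-forming protein of macrophages, had 6 members from 1.78 to 4.47. Dpyd, Nbr1 and Mpeg1 had IgG-called peaks in all 4 treatments. Golgb1, the Golgi tether giantin, had 8 members up to 3.88 beside 6 combination peaks that overlap other lists. There the members are further peaks of a gene with called peaks in other treatments too.

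Among the loci of highest fold held with both references, ND5 came first and Cnst second, and ND5 and ND2 were mitochondrial. ND5 and ND2 encode subunits of respiratory complex I on the mitochondrial genome. ND5 had a fold of 8.73 against input at chrMT:12875-13565 and 8.87 against IgG. The false discovery rate of this peak was 0.0141, so it is lost when at most 0.01 is required. Its second member had 6.18 and was matched by an IgG-called control peak of 2.53, so ND5 also had called peaks in controls. ND2 had members of 5.19 and 4.37 against input, with 4.37 and 3.55 against IgG, and no peak in another treatment. Together these genes gave 4 of the 10 combination peaks on the mitochondrial chromosome.

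Of these loci, Slc25a20 and Abcg8 encode transporters. Slc25a20, the carrier that brings acylcarnitines into mitochondria for oxidation, had 4.86 against input and 4.80 against IgG at chr9:108683992-108684341. Its other member, of fold 1.68, overlapped IgG-called peaks of 1.33 in controls and 1.85 after Aroclor1260. Abcg8, which with Abcg5 forms the transporter that exports cholesterol into bile, had 3 members of 1.63, 4.10 and 2.54, the highest at chr17:84697313-84699384. All 3 overlapped IgG-called combination peaks of 2.08, 4.04 and 3.25, and no other treatment had a peak at Abcg8. Galnt1, which starts mucin-type O-glycosylation, had members of 2.83, 2.29 and 4.23, all held with both references. Pgrmc1, a haem-binding partner of cytochrome P450 enzymes, reached 4.03 against input and 3.51 against IgG, and its only peak in another treatment was 1 of fold 1.21 after Aroclor1260.

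Cnst, which helps carry connexins to the cell surface, had 4 members up to 6.00, of which 3 overlapped IgG-called combination peaks, with folds up to 9.0. Ccm2, a scaffold protein needed for blood vessel integrity, had 1 member of 5.85, with 3.5 against IgG. Zfp62, a zinc finger protein, had members of 5.14 and 1.80, with 11.8 and 2.2 against IgG. Ciao3, which helps load iron-sulfur clusters in the cytosol, had 1 member of 3.93, with 12.6 against IgG. None of these 4 loci had a peak in another treatment with either reference.

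The highest folds against input over all members were, ND5 apart, at genes that PCB126 livers also held with IgG. H2-Q6, a class I histocompatibility gene, had 13.8 at chr17:35429360-35429559, with 17.8 in PCB126 and 8.90 in the combination against IgG. Near-identical class I genes share its sequence, so its identity is uncertain. Mtmr10, of the myotubularin family of phosphatases, had 9.0, with 6.80 in PCB126 livers at the same place. Ddx6, an RNA helicase of processing bodies, had 6.67, with 9.90 in PCB126 and 8.27 in the combination.

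Mtmr4, a lipid phosphatase of endosomes, had 7.25 and Taok3, a protein kinase, had 6.93. With IgG both were called after PCB126, at 7.85 and 4.70, and neither was called after the combination. Cavin2, a coat protein of caveolae, had 8.0, and all 4 treatments held that peak with IgG, at 7.40 in controls, 3.8 with Aroclor1260, 5.00 with PCB126 and 17.0 with both. Rbbp6, a ubiquitin ligase, had 7.85 at a gene with 5 further combination peaks, and controls held that place with IgG at 5.80.

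**Figure D4:**
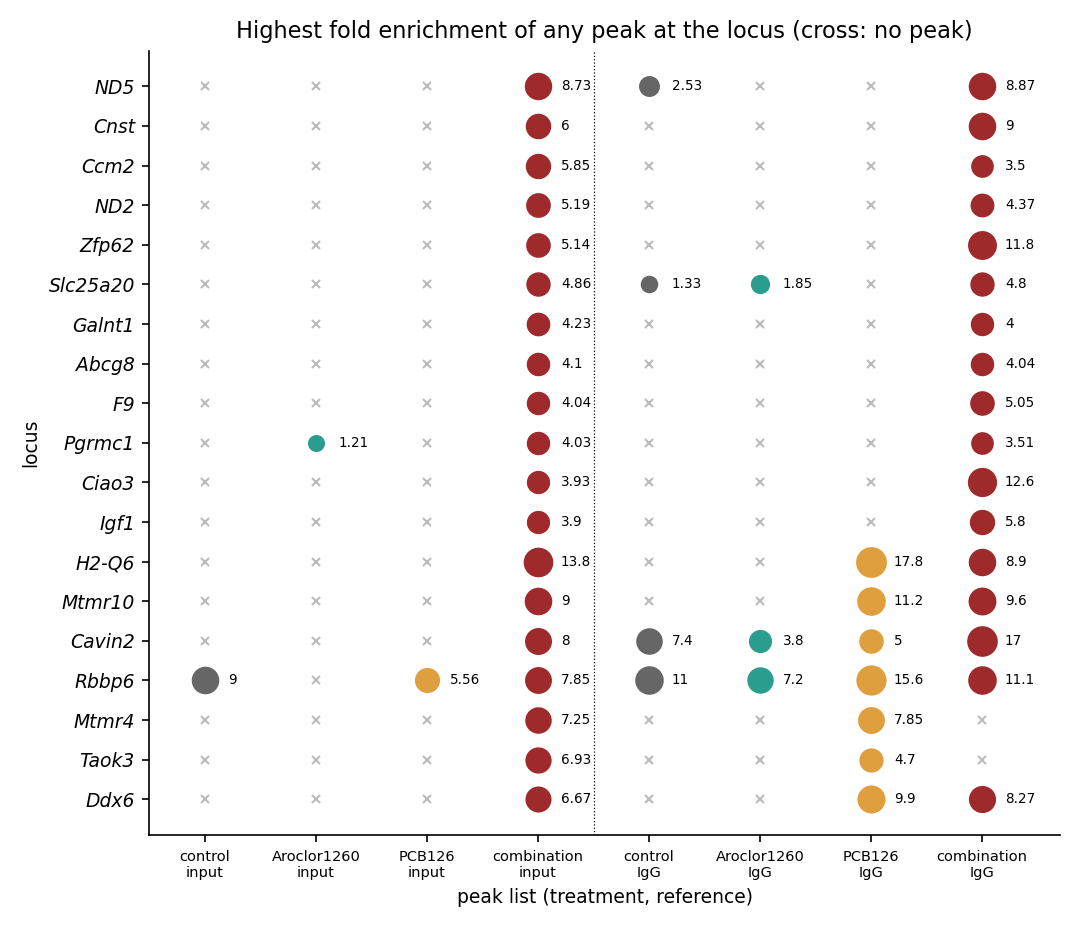
Highest fold enrichment of any called peak (dot, value beside it, larger dots for higher folds) at the loci with the highest folds among members held with both references (ND5 to Igf1) and among all members (H2-Q6 to Ddx6), in each of the 8 lists (treatment and reference). A cross marks a list without a peak. The H2-Q6 to Ddx6 rows all have a PCB126 dot in the IgG columns, while the ND5 to Igf1 rows have none. Members held with both references overlap no IgG-called peak of another treatment by definition, so this contrast follows largely from how the rows were chosen.

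Gene lists for liver function were counted over the 529 genes they name. Of these, 104 had a peak in the combination list, 60 a combination-only peak, and 15 a member held with both references. The 60 of 104 stands beside 50.5% for all combination loci, and the 15 of 104 beside 99 of all 741 combination loci. The lists were chosen with earlier results known, and their counts are descriptions.

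**Figure D5:**
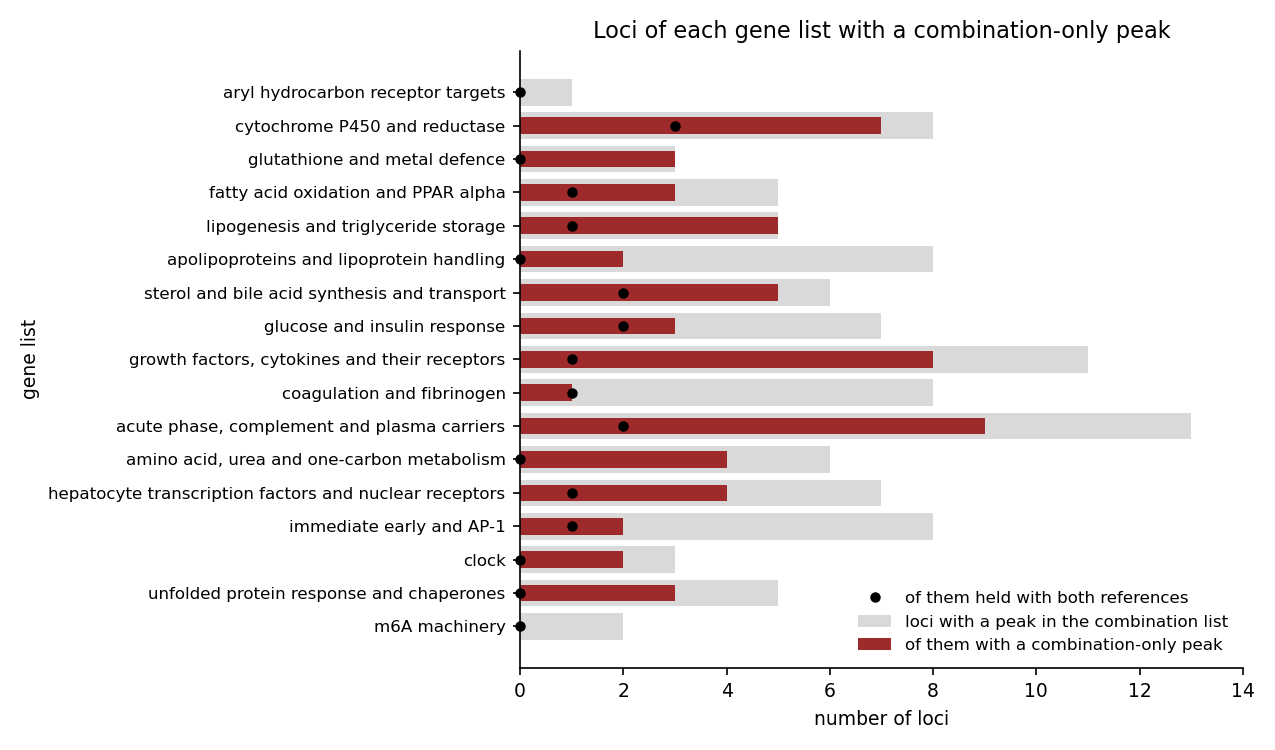
Number of loci (horizontal axis) of each pathway list that have a peak in the combination list (grey), a combination-only peak (red) and a combination-only peak held with both references (dot). Cytochrome P450 genes have 8, 7 and 3, and aryl hydrocarbon receptor targets 1, 0 and 0. All combination loci have 741, 374 and 99.

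Drug metabolism enzymes were among the members. Of 8 cytochrome P450 and reductase loci in the combination list, 7 had a member, and 3 had one held with both references. Over all 741 combination loci, 374 had a member and 99 had one held with both references. Cyp4a12a, a fatty acid hydroxylase, reached 3.45, Cyp2e1, which oxidises ethanol and small solvents, 3.42, Cyp2c50 3.12 and Cyp2c29 2.83. Cyp2c50 had 4 members and no peak in any list of another treatment. Both members of Cyp2c29 and 1 of 2 at each of Cyp4a12a and Cyp2e1 overlapped IgG-called peaks of other treatments. Cyp2c and Cyp4a genes are near-identical copies, so these assignments are uncertain. The other loci were Cyp2c37, Cyp2a5 and Por. Aryl hydrocarbon receptor targets had 1 locus in the combination list and 0 with a member. All 3 glutathione and metal defence loci had 1 member each, and none was held with both references. They were Gsta3, a glutathione transferase, at 3.08, Mt2, a metallothionein, at 2.18 and Gpx1, a glutathione peroxidase, at 1.56. The members of Gsta3 and Gpx1 overlapped IgG-called peaks of other treatments, and that of Mt2 did not.

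Genes of lipid synthesis, oxidation and export carried members. All 5 lipogenesis and storage loci in the combination list had a member, beside 374 of all 741 combination loci (50.5%). Beside Scd1, Lpin2, a phosphatidate phosphatase, had 6 members up to 2.40, of which 2 were held with both references, Acsl1, an acyl-CoA synthetase, reached 2.12 and Pparg, a nuclear receptor of fat storage, 2.10, with Pnpla2 as the fifth. All members of Acsl1 and Pnpla2 and 3 of 6 at Lpin2 overlapped IgG-called peaks of other treatments, and that of Pparg did not. In fatty acid oxidation, 3 of 5 loci had a member. Among them, beside Slc25a20, Cpt1a, the gate for fatty acids into mitochondria, had 3.90, and IgG gave it 9 peaks in controls, 7 with Aroclor1260, 1 with PCB126 and 1 with both.

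Of 6 sterol and bile acid loci, 5 had a member, beside 50.5% of all combination loci. After Abcg8 came Nr0b2, the repressor SHP of bile acid synthesis, at 3.30 and Abcb4, the phospholipid exporter into bile, at 2.95, and Klb also had a member. The members of Nr0b2 and Klb and 1 of 2 at Abcb4 overlapped IgG-called peaks of other treatments. Apolipoprotein and lipoprotein genes had members at 2 of 8 loci, among them Apob with 5 up to 2.42 beside 8 other combination peaks. All 5 Apob members overlapped IgG-called peaks of other treatments, and none overlapped one of the combination. In the glucose and insulin list, 3 of 7 had a member. Pde3b, the phosphodiesterase through which insulin lowers cyclic AMP, had 3 members up to 3.84, all held with both references and with no peak in another treatment. Txnip, a glucose-induced inhibitor of thioredoxin, reached 3.00 and Foxo1, a factor that insulin restrains, 2.29.

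Secreted proteins and their receptors also carried members. Over all combination loci, 50.5% had a member. Of 11 growth factor, cytokine and receptor loci, 8 had a member, and Igf1 alone had one held with both references. Ifnar2, a chain of the type I interferon receptor, reached 4.40, Ifngr1, of the interferon gamma receptor, 2.83, and Igfbp4, which binds IGF1, 1.86. All members of Ifnar2, Ifngr1 and Igfbp4 overlapped IgG-called peaks of other treatments. The other 4 loci were Egfr, Il6st, Igfbp1 and Klb. Of 13 acute phase, complement and carrier loci, 9 had a member, led by the serine protease inhibitors Serpina3n at 5.11 and Serpina3m at 4.80, which are near-identical copies and uncertain. Trf, the iron carrier transferrin, reached 3.5 and Mbl2, a lectin of complement, 2.83. These 4 were also called in another treatment with IgG, and the others were Rbp4, Mug1, Cp, Ttr and Vtn. In coagulation, F9 was the only one of 8 loci with a member.

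Amino acid genes had members at 4 of 6 loci, beside 50.5% of all combination loci. Among them were Glud1, glutamate dehydrogenase, at 3.41, Glul, glutamine synthetase, at 2.75 and Dmgdh at 1.73. All 5 members of Glud1 and all 4 of Glul overlapped IgG-called peaks of other treatments. Among hepatocyte transcription factors 4 of 7 had a member, with Hnf4a, a master factor of hepatocytes, at 2.14, Pparg at 2.10, Onecut2 at 1.72 and Rxra, the partner of many nuclear receptors, at 1.38. Immediate early genes had 2 of 8, Jun at 2.00 and Egr1 at 1.69, and clock genes 2 of 3, Dbp at 2.12 and Noct at 2.00. The unfolded protein response had 3 of 5, Xbp1 at 1.5, Herpud1 at 1.42 and Atf4 at 1.19. The members of Onecut2, Rxra, Egr1, Dbp, Xbp1 and Herpud1 and 2 of 3 at Hnf4a overlapped IgG-called peaks of other treatments. Those of Pparg, Jun, Noct and Atf4 did not. The m6A machinery had 2 loci in the combination list and 0 with a member.

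Few markers of other cell types had a peak in the combination list, and the 1 stellate and 1 macrophage marker there both had members. Dcn, the decorin of stellate cells, reached 3.30 in 3 peaks and the gene also had IgG-called peaks in controls and PCB126 livers. Cd5l, of macrophages, reached 1.96 in 2 peaks, which IgG lists of controls and Aroclor1260 held too. The 1 endothelial marker in the combination list had no member. Of the 5 hepatocyte markers in that list, Trf, Cyp2e1 and Ttr had members, and 50.5% of all combination loci had one. The part of cell makeup in the combination-only calls was not tested.

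At the edge of the rule, members and other peaks had similar folds. The members closest to another list's peak lay 47 or 48 bp away. They were at Pakap (chr4:57855401-57855500, fold 1.71), Fam124a (chr14:62606605-62606704, 2.71) and Krcc1 (chr6:71284780-71285025, 2.00). Just outside, peaks at Ttpa (6.25), Crk (2.88) and Usp9x (2.67) overlapped another list's peak by 1 bp, as did 34 peaks in all. The 51 members within 100 bp of another list's peak and those 34 peaks both had a median fold of 1.67. Most members were far from any such peak, with a median distance of 146814 bp. For 498 of them (63.6%) the nearest one lay more than 10000 bp away. For 3 further members no other list had a peak on that chromosome and strand.

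Set beside the 759 peaks found after PCB126 alone, chosen by the same rule, the members had a lower share held by their own IgG list. That share was 76.5% for PCB126-only peaks and 68.2% for combination-only peaks, a difference of 8.35 points (95% interval 3.89 to 12.8). Over the whole input lists it was 87.9% for PCB126 and 81.9% for the combination, so the lists as a whole differed in the same direction. Peaks of another treatment with IgG overlapped 53.9% and 63.5%, a difference of -9.59 points (-14.4 to -4.67), beside 80.8% and 85.2% over the whole lists. Held with both references were 30.3% and 21.2%, a difference of 9.10 points (4.74 to 13.4), beside 12.8% and 8.58% over the whole lists. The PCB126 IgG list is also the longer, with 4129 peaks against 3683, and the part of list length in these differences was not tested. The median fold was 2.03 in the PCB126-only peaks and 1.86 in the combination-only peaks. For the smaller sets the difference in the own IgG share had wide intervals. They ran from -21.1 to 15.8 points for the 22 Aroclor1260-only peaks and from -22.6 to 11.5 for the 28 control-only peaks. All of these intervals cover counting error over peaks only. Each list pools a treatment, so no number of peaks makes them a test of a difference between treatments.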

How the data were processed

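The submitters' processing notes name BWA 0.7.17, Trimmomatic, FastQC 0.10.1 and bcl2fastq 2.20.0.422, and build mm10. The 8 deposited lists are titled as MeTPeak output, whose version, settings and annotation the sources used here do not give. Per the file headers, each peak has a fold enrichment (a linear ratio), a p-value, and the log10 of a false discovery rate, all computed by the authors' caller. Depth is unknown.

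Peaks were taken as overlapping from 1 shared bp on the same strand, with starts counted from 1. A span given to 2 identifiers left 782 distinct spans. Ensembl identifiers took the name of the RefSeq (GRCm38.p6) gene holding at least 80% of their exonic peak bases and not known to lie on the other strand. Of 1512 identifiers 1384 were named and 128 were not. Exon and UTR positions were not used here. Shares have Wilson and differences Newcombe 95% intervals, for counting error only (Python 3.11.15, pandas 2.3.3, scipy 1.17.1), checked on simulated data.

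The members and the 23 gene lists were chosen with earlier results of these data known. Named loci were the 12 with most members, the 12 of highest fold held with both references, the 8 of highest fold, list genes (values for at most 4 a list) and 3 peaks on each side of the rule. Alternatives changed overlap, strand, thresholds, reference and list length. Some list genes with a member are not reported here by name.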

Additional observations from a re-analysis of the deposited data

How the results depend on the processing

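Of 34 alternatives, 20 left a count within 1.5 times the reported one or a share or median within its 95% interval, a wide tolerance for counts. Requiring 50% reciprocal overlap gave 1225 peaks, 290 of them held with both references, a median fold of 2, and shares of 47.6% in the combination IgG list and 39.3% in other IgG lists. Comparing genes in place of spans gave 498 peaks. A fold of at least 2 in every list gave 488. With 1 peak per gene the combination IgG share was 71.5% and the median fold 2.12, and at members of fold at least 2 that share was 79.2%. The share of members at genes with a peak in another treatment was 84.2% with input and IgG lists and 27.8% at a fold of at least 2. Keeping 506 peaks in every list, the length of the shortest, left 227 combination-only peaks, 44.9% of that list. A shorter list lowers the count by construction, and the same cut left 39.9% for PCB126, 26.1% for Aroclor1260 and 28.5% for controls. Gene list loci with a member numbered 15 when both references were required, beside 99 of all 741 combination loci. Calling members among IgG lists gave 972 peaks at 464 loci, of which 162 loci were shared, 43.3% of the loci found with input and 34.9% of those found with IgG. An overlap of at least 25 bp, chosen after seeing the data, gave 817. No paired analysis was possible because each list pools the replicates of a treatment, and neither leaving out a replicate nor blocking on one was open. The lists give no read counts, so a fold near 1 cannot be told from counting noise here.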

Other observations

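Members that no IgG list held, 120 in all, lay at 99 loci. They included Pptc7, with 3 such peaks of up to 4.60, and Kdm4b, with 1 of 4.50. Genes of the liver function lists were also among them and are named here as examples. Cyp2c37, a cytochrome P450, had 3 such peaks with folds from 1.36 to 2.67, Vtn, the plasma protein vitronectin, had 2 of 1.23 and 1.33, and Mt2 and Dmgdh, a mitochondrial enzyme of choline breakdown, had 1 each at 2.18 and 1.73. None of the loci named here had an IgG-called peak in any treatment, the combination included.

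Of the members that other treatments held with IgG, 173 were shared with PCB126 alone, 43 with controls alone and 41 with Aroclor1260 alone. Both Aroclor1260 and PCB126, without controls, held 68, and all 3 held 97. Controls and PCB126 held 47, and controls and Aroclor1260 held 28. Where an IgG-called peak overlapped a member, its median fold was 2.16 in controls, 2.2 with Aroclor1260, 3.00 with PCB126 and 2.89 with both, values that come from lists called separately.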
